A study of Arabidopsis thaliana with 12 samples.

Results

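This section describes eto1-4 seedlings grown with AVG, set against the wild type Col-0. The comparison was chosen by its labels, as 4 of the 12 arrays of the series, and it covers all 22746 Arabidopsis thaliana probe sets that are not array controls. Both groups were whole seedlings grown in the dark for 3 days. The first group was the ethylene-overproducing mutant eto1-4, in the Col-0 ecotype, on 0.5x MS medium with 10 µM AVG (2 arrays), and it was compared with Col-0 on the same medium with no compound (2 arrays). Values of untreated eto1-4 (2 arrays) are given beside them. The other 6 arrays, eto1-4 with 10 µM 9393, 9370 or 7303, entered the estimate of spread and 1 further contrast. No Col-0 seedlings grown with AVG were among the groups, so what AVG does in the wild type was not measured, and the mutation and the compound differ together between the groups compared.

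Ethylene is a gaseous hormone made from methionine through S-adenosylmethionine and ACC, and ACC synthase, which depends on pyridoxal phosphate, usually sets the rate. ETO1 marks a class of ACC synthases for degradation, so seedlings that lack it overproduce ethylene and show the short, thick hypocotyl and tight apical hook of the ethylene response in darkness. AVG, aminoethoxyvinylglycine, inhibits ACC synthase and also other enzymes that use pyridoxal phosphate, among them the tryptophan aminotransferases of auxin synthesis.

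The deposited values are MAS5 signals on a linear scale, and differences below are on the log2 scale after adding 22.4, the 20th percentile of all signals, which understates changes of dim genes. A probe set was called at a limma adjusted p under 0.05, over 14830 probe sets bright enough to be tested. Poly-A spike RNA was found on both AVG arrays and on Col-0 replicate 2, but not on Col-0 replicate 1. The GAPDH control gave a 3' to 5' ratio of 1.46 and 1.38 on the AVG arrays, against 1.89 and 1.39 on the Col-0 arrays. Signal of the 25S rRNA control was 9513 and 7285 on the AVG arrays, against 208 and 266 on the Col-0 arrays. The part of these array features in the results was not tested beyond the values given below for the spiked arrays. PORB, a protochlorophyllide reductase abundant in dark-grown tissue, stood at the 95.1 and 98.1 percentile of the tested probe sets on the AVG arrays, and at the 99.6 and 99.8 percentile on the Col-0 arrays. It was the 1 gene named and tested of the 13 markers for light-grown and dark-grown seedlings. ETO1 itself was not analysed here. In whole seedlings, fewer cells of a type and less RNA per cell cannot be told apart.

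AVG-grown eto1-4 differed from Col-0 in 1365 of 14830 probe sets, which is 9.2% of those tested. The mutant with AVG was higher in 653 of them (4.4%) and lower in 712 (4.8%). Of the probe sets called, 697 name 1 gene, 364 of them higher and 333 lower. At least a 2-fold difference was reached by 373 of the higher and 481 of the lower ones, and a 4-fold difference by 65 and 58. At an unadjusted p under 0.05 there were 4131. Of the calls 47.8% were higher, a share that other scalings moved to 58.1% (quantile normalization) and 74.3% (median centring). The median difference of all tested probe sets was -0.08, and median centring moved it to 0.10. Among the spiked arrays alone, where Col-0 has 1 array, 1339 of the 1365 were tested and kept their sign. The others include probe sets too dim to be tested on those arrays, so not all of them are reversals. The number called rests on each of the 4 arrays: it was 161 without Col-0 replicate 1 and 0 without Col-0 replicate 2. It was 0 without AVG replicate 1 and 2 without AVG replicate 2, where 2538 (Col-0 replicate 2), 2551 (AVG replicate 1) and 3100 (AVG replicate 2) probe sets still had an unadjusted p under 0.05 in limma. It was also 886 and 879 without 7303 replicate 1 and replicate 2, which enter through the shared spread.

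THI2.2, a thionin of the family of small antimicrobial peptides, fell furthest among the genes named here. Its signal was 5.21 and 5.90 on the AVG arrays, 127 and 283 in untreated eto1-4 and 479 and 621 on the Col-0 arrays. Both AVG arrays lay far below the other 4, and the difference from Col-0 was -4.35 ± 0.49 (SE; adjusted p = 0.00954). THI2.2 was also the 1 probe set of 14830 called between AVG and the mean of the other 3 treatments (0.00674% of those tested; difference -4.09 ± 0.40, adjusted p = 0.0164). It read 656 and 617 with 9393, 856 and 529 with 9370 and 113 and 394 with 7303. No probe set was called in that contrast with an offset of 100, on the spiked arrays alone, or without any 1 of 6 arrays, those of Col-0, 9393 and AVG. There were 6 calls without 7303 replicate 1 and 7 without 9370 replicate 2. At an unadjusted p under 0.05, limma gave 1795.

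XTH32, which encodes an enzyme that cuts and rejoins xyloglucan in the cell wall, had 401 and 208 with AVG, against 2440.2 and 2832 in Col-0. The difference was -3.08 ± 0.68, and untreated eto1-4, at 1219 and 3195, lay on either side of the Col-0 values. AT4G22490, of the lipid transfer protein family, read 317 and 892 with AVG and 4899 and 4841 in Col-0 (-3.13 ± 0.86, adjusted p = 0.0490). Its untreated eto1-4 arrays stood apart from each other, at 5059.8 and 1859.8, and the call was lost after quantile normalization and after median centring. PME61, a pectin methylesterase, fell to 138 and 107 in AVG-grown seedlings, against 569.8 and 997 in Col-0, and read 53.7 and 60.3 without AVG.

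AT1G06000, a flavonol 7-O-rhamnosyltransferase, had 257 and 287 with AVG and 1597 and 1612 in Col-0, a difference of -2.47 ± 0.57 (adjusted p = 0.0303). UGT78D1, the flavonol 3-O-rhamnosyltransferase, had 89.2 and 57.7 with AVG and 368 and 495 in Col-0. UGT78D2, a flavonoid 3-O-glucosyltransferase, had 139.7 and 117 with AVG and 538 and 515 in Col-0. UGT78D1 differed by -2.25 ± 0.48 and UGT78D2 by -1.87 ± 0.50. These 3 genes were set side by side after their values were seen, and the flavonoid synthesis list itself had 1 tested member and 0 called. In untreated eto1-4, UGT78D1 read 100.2 and 70.3, overlapping the AVG values, while UGT78D2 read 331 and 784. The call of UGT78D2 was lost after both other scalings and on taking spiked and unspiked arrays as a block (adjusted p = 0.0589). That member, CHIL, related to chalcone isomerase, read 15.9 and 24.6 with AVG and 199 and 224 in Col-0 and did not pass (-2.46 ± 0.85, adjusted p = 0.0931).

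GTR1, a glucosinolate transporter, fell with little spread, to 179 and 209 with AVG, against 901 and 1203 in Col-0 (-2.30 ± 0.28, adjusted p = 0.00954). AT3G10840 was as tight, with 67.1 and 87.9 under AVG, against 511 and 502 in Col-0. AT3G56290 had 150.1 and 97.6 with AVG and 1161 and 1246 in Col-0. In each of these 3 genes both AVG arrays lay below all 4 arrays of Col-0 and untreated eto1-4. The choice of genes by their difference from Col-0 favours such a separation. AT5G04120, of the phosphoglycerate mutase family, had the second largest fall among named genes, -3.91 ± 0.87, but its Col-0 arrays read 167 and 1487, far apart from each other, with 6.20 and 21.6 on the AVG arrays. Its difference ranged from -5.41 to -2.42 with 1 array left out at a time. The other genes that fell most were AT1G70985 (-2.41), the acyltransferase family gene AT2G25150 (-2.38), AT1G22630 (-2.31), AT2G46420 (-2.28) and AT2G36145 (-2.24).

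Among genes that rose, AT3G05950, a germin-like protein, had the largest difference, 3.89 ± 0.81 (adjusted p = 0.0231). It read 473 and 775 with AVG, against 42.5 and 5.23 in Col-0, values around the offset. AT4G37220, of the WCOR413 cold acclimation family, had 8441 and 9372 with AVG and 1842 and 369 in Col-0, so its Col-0 arrays were far apart while both AVG arrays lay above them (3.38 ± 0.84). AT4G25580, of the CAP160 family, had 1203 and 1122 with AVG and 122 and 115 in Col-0, a difference of 3.07 ± 0.31 with close replicates. COR27, a cold-regulated gene, rose by 2.54 ± 0.35, to 1062 and 927 with AVG, against 189 and 122 in Col-0. It read 439 and 839 in untreated eto1-4, also called against Col-0 (1.85 ± 0.35, adjusted p = 0.0328). The step from untreated eto1-4 to AVG did not pass (0.69 ± 0.35, adjusted p = 0.264).

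MGL, methionine gamma-lyase, a pyridoxal phosphate enzyme that breaks methionine down, had 3885 and 4368 with AVG and 660.0 and 595 in Col-0. It rose by 2.67 ± 0.66 (adjusted p = 0.0362), and untreated eto1-4 lay between, at 1622 and 1558. GAT1_2.1, a glutamine amidotransferase, had 3679.8 and 2824 with AVG, against 775 and 279 in Col-0 (2.73 ± 0.58). HIS1-3, a linker histone known to be induced by drought, had 1475 and 818 with AVG, 544 and 518 in untreated eto1-4 and 134 and 172 in Col-0 (2.68 ± 0.50). ATL8, a RING finger protein, had 1126 and 1207 with AVG, 315 and 327 in untreated eto1-4 and 264 and 134 in Col-0. In all 4 genes both AVG arrays lay above both Col-0 arrays, which the choice of genes by this difference favours. AT1G62510, of the lipid transfer and 2S albumin family, rose by 2.59 ± 0.64, AT2G15960 by 2.54 ± 0.45, AT5G39520 by 2.82 ± 0.63 and AT1G19530 by 2.77 ± 0.69. AT1G19530 read 4807 and 629 in Col-0, and its difference ranged from 1.33 to 4.22 with 1 array left out at a time.

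**Figure D1:**
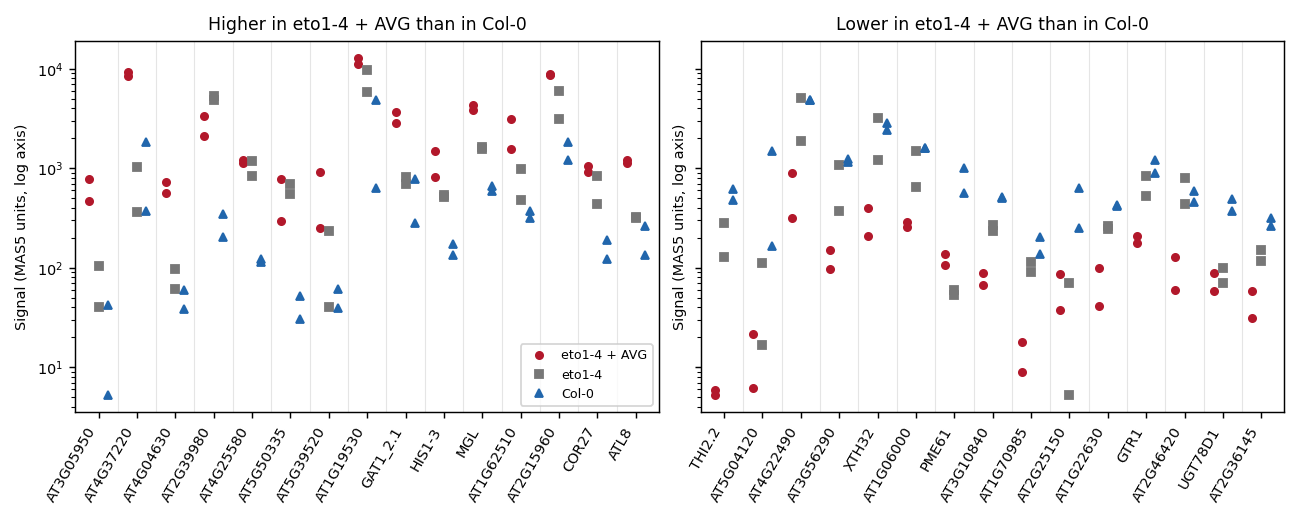
Signal on each array (log axis, MAS5 units) of the 15 named genes that rose most (left) and the 15 that fell most (right), with 2 arrays each of eto1-4 + AVG (circles), untreated eto1-4 (squares) and Col-0 (triangles). The AVG circles lie clear of the Col-0 triangles in every gene shown, which the choice of genes by this difference favours, while the squares lie at either end or between.

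Genes with little difference between untreated eto1-4 and Col-0 were taken as those called between AVG and Col-0 and, in the same direction, between AVG and untreated eto1-4, with a fitted difference of eto1-4 from Col-0 under 0.5 on the log2 scale. There were 223 such probe sets, 1.5% of those tested, 119 higher and 104 lower, and 114 name 1 gene. The comparisons share arrays, so the class is a description and no test of independence. The median difference from Col-0 was 1.15 with AVG and -0.03 in untreated eto1-4 for the higher ones. For the lower ones it was -1.07 with AVG and 0.05 in untreated eto1-4. Over all tested probe sets, 5.32% were called between AVG and untreated eto1-4, 2.95% higher and 2.37% lower. The class depends on the untreated arrays, with 1 member left without eto1-4 replicate 1 and 124 without eto1-4 replicate 2, and it had 358 with spiked and unspiked arrays as a block. It also had 23 without Col-0 replicate 1, and 0 without Col-0 replicate 2 or without either AVG array. Arrays that enter through the spread moved it too, to 353 and 354 without 9393 replicate 1 and replicate 2, and to 88 and 87 without 7303 replicate 1 and replicate 2.

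In this class AT2G31945 had the lowest adjusted p of the 10 named genes that rose, with 862 and 724 in AVG-grown eto1-4, against 169 and 279 in untreated eto1-4 and 181 and 134 in Col-0 (2.19 ± 0.29 over Col-0, adjusted p = 0.0119). AT4G04630 had 727 and 563 with AVG, 61.4 and 96.6 in untreated eto1-4 and 60.4 and 38.1 in Col-0, a rise of 3.23 ± 0.51 over Col-0, and lay just inside the limit of the class (0.50 in untreated eto1-4). AT1G76590, of the PLATZ family of zinc-binding transcription factors, had 1081 and 842 with AVG, 223 and 224 in untreated eto1-4 and 289 and 139 in Col-0. The AVG arrays of these 3 genes lay above all 4 others, which the rule for the class favours. AT2G20670 read 9914 and 8351 with AVG, 1554 and 3248 without it and 2732 and 1688 in Col-0, and AT1G23120 read 1942 and 1535 with AVG, 428 and 596 without it and 554 and 391 in Col-0. Both stood well above the other 4 arrays with AVG. AT2G19970, of the CAP family of secreted proteins that includes PR-1, had 1916 and 1711 with AVG and 641 and 347 in Col-0. The remaining ones named were AT4G37220, described above, AT1G65510 (1.99), AT3G20340 (1.94) and AT3G45730 (1.92). Between AVG and the mean of the other 3 treatments these 10 differed by 0.51 to 1.48, and none passed (adjusted p = 0.219 to 0.730).

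Of the lower genes in the class, AT1G43910, an AAA-type ATPase, had 78.0 and 62.9 with AVG, 279 and 364 in untreated eto1-4 and 365 and 362 in Col-0 (-2.06 ± 0.38). AT3G43960, a papain-type cysteine protease, had 242 and 326 with AVG, 783 and 761 in untreated eto1-4 and 857 and 906 in Col-0. The aspartyl protease gene AT3G61820 had 130.2 and 142 with AVG, 389 and 569.8 in untreated eto1-4 and 350.4 and 541 in Col-0. AT4G30020, a subtilisin-type protease, had 99.9 and 120.2 with AVG, 405 and 291 in untreated eto1-4 and 274 and 351 in Col-0. These 4 thus read lower on both AVG arrays than on any array of the other groups shown, which the rule for the class favours. SBPASE, sedoheptulose-bisphosphatase of the Calvin cycle, had 1422 and 1464 with AVG, 3372 and 2843 in untreated eto1-4 and 3574 and 4524 in Col-0. It fell by 1.46 ± 0.24 from the Col-0 level (adjusted p = 0.0149). AT1G22160, of the FCS-like zinc finger family, fell by 1.83 ± 0.43, and AT5G46450, a TIR-NBS-LRR resistance protein gene, by 1.47 ± 0.29. AT1G53070, a legume lectin family gene, fell by 1.44 ± 0.35, the F-box gene AT2G32560 by 1.34 ± 0.24 and AT2G46420 stood at -2.28. The calls of AT1G53070 and AT2G46420 were lost after quantile normalization. Between AVG and the mean of the other 3 treatments these 10 differed by -1.60 to -0.15, and none passed (adjusted p = 0.177 to 0.897).

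**Figure D2:**
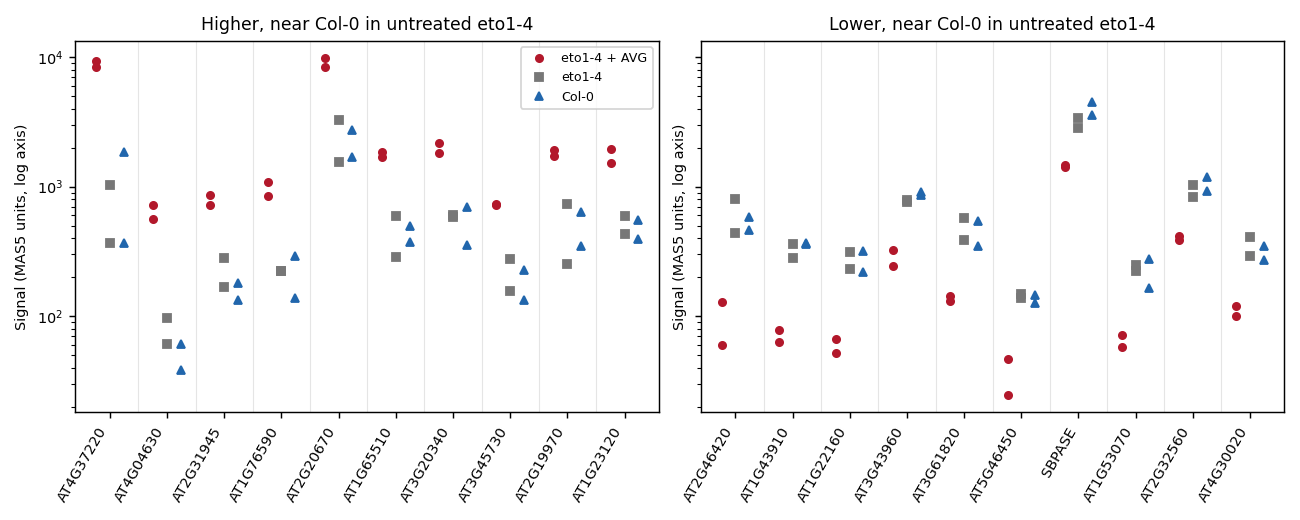
Signal on each array (log axis, MAS5 units) of the 10 genes that rose most (left) and the 10 that fell most (right) in the class. The class takes a fitted difference of eto1-4 from Col-0 under 0.5 and a call in the same direction against Col-0 and untreated eto1-4. Shown are eto1-4 + AVG (circles), eto1-4 (squares) and Col-0 (triangles), 2 arrays each. The circles stand apart from both other groups, which overlap or lie close together, a pattern that the rule for the class favours.

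A second class held probe sets called in the same direction in AVG-grown eto1-4 and in untreated eto1-4 against Col-0. There were 102, 0.688% of those tested, 47 higher and 55 lower, and 56 name 1 gene. They made up 7.47% of the 1365 probe sets called with AVG and 31.3% of the 326 called in untreated eto1-4 (2.2% of those tested, 0.978% higher and 1.22% lower). Both comparisons share the Col-0 arrays, so part of any likeness comes from these, and each comparison's own values are given. The higher ones had a median difference from Col-0 of 1.54 with AVG and 1.46 without it, and the lower ones -1.37 with AVG and -1.40 without it. The class held 318 probe sets with spiked and unspiked arrays as a block, and 22 without Col-0 replicate 1. Leaving out eto1-4 replicate 1 gave 15 and leaving out eto1-4 replicate 2 gave 59, and the 2 arrays of 7303 gave 43 (replicate 1) and 42 (replicate 2). It held 0 to 2 without Col-0 replicate 2 or either AVG array.

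UPB1, a transcription factor that controls peroxidase genes in the root, had 1544 and 2181 with AVG, 1774 and 2634 in untreated eto1-4 and 393 and 313 in Col-0. Its difference from Col-0 was 2.32 ± 0.29 with AVG and 2.55 ± 0.29 without it, and AVG and untreated eto1-4 arrays overlapped. AT2G39980, an acyltransferase family gene, had 2098 and 3334 with AVG, below the 4913 and 5297 of untreated eto1-4 and above the 347 and 202 of Col-0. SIS, salt induced serine rich, had 6048 and 6145 with AVG, against 3821 and 2518 in untreated eto1-4 and 1366 and 920.4 in Col-0, but the step from untreated eto1-4 did not pass (0.97 ± 0.29, adjusted p = 0.0816). AT4G25580 and COR27, described above, also belong here, and AT4G25580 read 829.8 and 1172 in untreated eto1-4. The glutaredoxin family gene AT4G15700 had 140.1 and 223 with AVG and 35.6 and 18.9 in Col-0, a rise of 2.03 ± 0.33. AT5G50335 rose by 3.00 ± 0.59 and AT5G02540 by 2.38 ± 0.61. AT5G02540 was not called on the spiked arrays alone (adjusted p = 0.0966), and its AVG arrays were far apart, with a difference of 3.42 without AVG replicate 1 and 1.34 without AVG replicate 2.

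Among the lower genes of this class, AT1G55210, of the dirigent family that steers phenoxy radical coupling, had 587 and 532 with AVG, 902 and 548 in untreated eto1-4 and 1947 and 2153 in Col-0. It fell by 1.83 ± 0.33 with AVG. The sulfotransferase family gene AT2G03750 had 307 and 162 with AVG and 809 and 974 in Col-0. AT2G32640, of the lycopene cyclase family, had 48.9 and 45.4 with AVG, 88.5 and 83.4 in untreated eto1-4 and 212 and 215 in Col-0, close within each group (-1.76 ± 0.22, adjusted p = 0.00997). The UDP-glycosyltransferase family gene AT2G22930 differed by -1.98, the defensin-related AT3G63360 by -1.84 and AT2G18210 by -1.80. PME61 and AT2G25150 also belong here, with differences of -3.29 and -3.05 in untreated eto1-4.

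**Figure D3:**
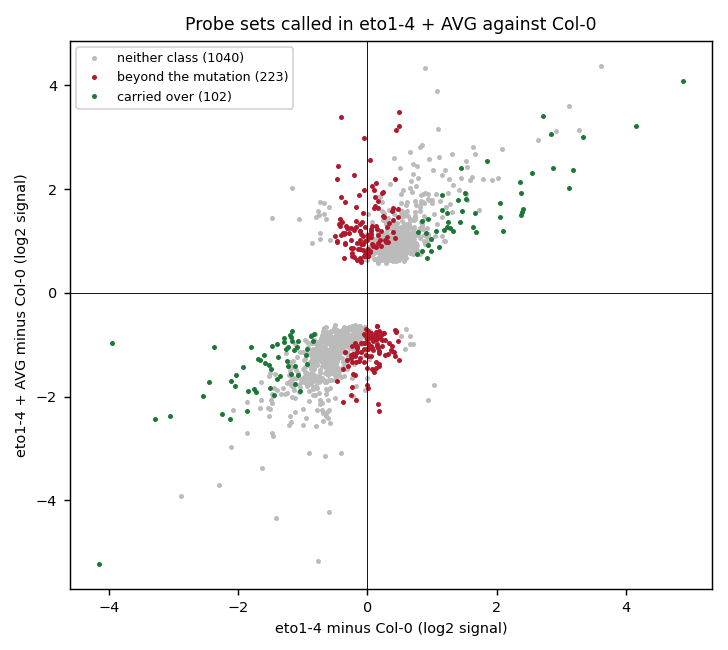
Each point is 1 of the 1365 probe sets called in eto1-4 + AVG against Col-0, with its difference from Col-0 in untreated eto1-4 (x axis) and with AVG (y axis), both on the log2 scale. Coloured are 223 probe sets also called in the same direction against untreated eto1-4, with untreated eto1-4 within 0.5 of Col-0. The 102 called in the same direction in both comparisons with Col-0 are coloured too. The other 1040 belong to neither class, and both axes share the 2 Col-0 arrays.

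Of the ethylene pathway, the ACC oxidase gene AT1G12010 (ACO3), whose product makes ethylene from ACC, was the 1 gene measured of the 21 on the synthesis list. It had 1185 and 1161 with AVG, 547 and 482 in untreated eto1-4 and 541 and 405 in Col-0. It rose by 1.29 ± 0.28 over Col-0 (adjusted p = 0.0254). None of the 3 measured genes of perception and signalling was called, against 9.2% of all probe sets. EIN3, the transcription factor at the head of the transcriptional response, had 3805 and 3708 with AVG and 2220.1 and 2137 in Col-0, with no overlap (0.78 ± 0.30, adjusted p = 0.119). RTE1, which acts on the receptor ETR1, had 268 and 465 with AVG, 788 and 782 in untreated eto1-4 and 226 and 119 in Col-0. It lay above Col-0 on both AVG arrays and below untreated eto1-4, at 1.01 ± 0.30 from Col-0 (adjusted p = 0.0616), and was called on the spiked arrays alone (adjusted p = 0.0379) and with spiked and unspiked arrays as a block (adjusted p = 0.0451). ETP2, an F-box protein that acts on EIN2, differed by 0.28 ± 0.21. ARL, an ethylene-induced gene of organ growth, had 990.4 and 2678 with AVG, 4542 and 3761 without it and 791 and 631 in Col-0 (1.18 ± 0.37, adjusted p = 0.0720), and AT4G32330 (WDL5) differed by -0.39 ± 0.18.

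The 3 measured pyridoxal phosphate enzymes other than ACC synthases included 2 that rose over Col-0, beside 4.4% of all probe sets. MGL is given above. DELTA-OAT, ornithine aminotransferase, had 1386 and 977 with AVG and 572 and 639.9 in Col-0 (0.92 ± 0.23, adjusted p = 0.0397), and was not called on the spiked arrays alone (adjusted p = 0.0653). In untreated eto1-4, DELTA-OAT read 745 and 976, the higher of these just below the lower AVG value. The step from untreated eto1-4 to AVG did not pass for MGL (1.36 ± 0.66, adjusted p = 0.2397). It did not pass for DELTA-OAT either (0.44 ± 0.23, adjusted p = 0.287). CBL, cystathionine beta-lyase of methionine synthesis, had 1103 and 1162 with AVG and 967 and 1282 in Col-0, values that overlap (0.02 ± 0.25).

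None of the 4 measured root hair genes was called with AVG against Col-0, against 9.2% of all probe sets. XTH26, a root hair xyloglucan endotransglucosylase, had 1.86 and 32.7 with AVG, 183 and 392 in untreated eto1-4 and 3.75 and 28.6 in Col-0. The root hair peroxidase gene AT4G26010 (PRX44) had 572 and 1161 with AVG, 2118 and 2840.4 without it and 577 and 1144 in Col-0. In both genes AVG and Col-0 arrays overlapped, below both arrays of untreated eto1-4, and AVG differed from untreated eto1-4 by -2.99 ± 0.51 for XTH26 (adjusted p = 0.0154) and -1.56 ± 0.37 for AT4G26010 (adjusted p = 0.0422). EXPA18 (164 and 228 with AVG, 306 and 543 in untreated eto1-4, adjusted p = 0.125) and EXPA7 (-0.80 ± 0.38, adjusted p = 0.230) did not pass against untreated eto1-4. The 95% intervals of the difference from Col-0 were -1.14 to 1.14 for XTH26 and -0.83 to 0.84 for AT4G26010. For the root hair expansins they were -0.59 to 1.09 for EXPA7 and -0.68 to 0.91 for EXPA18. The list had a median of 0.06 with AVG and 1.34 in untreated eto1-4, beside -0.08 and -0.03 over all probe sets tested. In untreated eto1-4 against Col-0, XTH26 passed (adjusted p = 0.0226) and AT4G26010 (0.0640), EXPA18 (0.146) and EXPA7 (0.188) did not. The signs of XTH26, AT4G26010, EXPA7 and EXPA18 against Col-0 turned under some settings.

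Serine carboxypeptidase-like proteins, which include acyltransferases and proteases, had 4 of 14 members that fell and 0 that rose, against 4.8% and 4.4% of all probe sets, with a median of -0.61. SCPL45 had 188 and 222 with AVG and 415 and 692 in Col-0 (-1.30 ± 0.23). The others that fell were scpl42 (-1.11 ± 0.21), scpl40 (-0.87 ± 0.17) and scpl46 (-1.68 ± 0.34). These 4 were also called after quantile normalization and after median centring. The family count was 7 on the spiked arrays alone and with spiked and unspiked arrays as a block. It was 1 without Col-0 replicate 1, and 0 without Col-0 replicate 2 or either AVG array. Its median in untreated eto1-4 was -0.59.

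Of the cell wall families, read beside the 4.8% of all probe sets that fell, 2 of 6 xyloglucan endotransglucosylases fell, XTH32 and XTH19. XTH19 had 3269 and 4402 with AVG, 8282 and 9197 in untreated eto1-4 and 6744 and 6139.9 in Col-0, and its difference from Col-0 was -0.76 ± 0.20 (adjusted p = 0.0451), and XTH33 stood at -1.05 ± 0.40 (adjusted p = 0.118). XTH19 was not called under median centring or on the spiked arrays alone. Of 14 expansins 1 fell, a share near that of all probe sets. It was EXPB1, with 389 and 279 under AVG, 231 and 223 in untreated eto1-4 and 801 and 1074 in Col-0 (-1.43 ± 0.20, adjusted p = 0.0135). PME61 was the 1 of 3 pectin-modifying enzymes called.

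Of nuclear genes for plastid proteins, PORB fell to 4136 and 6873 with AVG, against 13931 and 15950.0 in Col-0 (-1.48 ± 0.34, adjusted p = 0.0299), and read 13266 and 8170.0 in untreated eto1-4. Of 5 light-harvesting and photosystem genes 1 was called lower, LHCB4.3, an antenna protein of photosystem II. It read 267 and 304 with AVG, against 518 and 507 in Col-0 (-0.80 ± 0.22, adjusted p = 0.0490). Untreated eto1-4 read 260 and 311, overlapping the AVG values. The call was lost after both other scalings and with spiked and unspiked arrays as a block (adjusted p = 0.0560). The family median was -0.51 with AVG and -0.49 in untreated eto1-4. The other 4 differed by -0.71 to -0.33 and did not pass, and 4.8% of all probe sets fell.

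Genes of the chloroplast genome, which encode photosystem, NADH dehydrogenase-like, ribosomal and polymerase proteins, were a group added after the values were seen. Of 69 named on the array 68 were tested, and 63 of these had a fitted difference below 0 with AVG. Most also lay below 0 in untreated eto1-4, and the share of all probe sets below 0 was not counted. Of the 68, 8 fell and 0 rose, against 4.8% and 4.4% of all probe sets. The median difference from Col-0 was -0.71 with AVG and -0.26 in untreated eto1-4, beside -0.08 and -0.03 over all tested probe sets. Between AVG and untreated eto1-4 the median was -0.40, and 1 of 68 was called.

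The gene ndhH, a subunit of the NADH dehydrogenase-like complex, had 123 and 161 with AVG, 177 and 241 in untreated eto1-4 and 343 and 354 in Col-0 (-1.18 ± 0.23, adjusted p = 0.0201). The ribosomal protein gene rpl22 had 2881 and 3884 with AVG, 5880.3 and 7046 in untreated eto1-4 and 6325 and 9274 in Col-0 (-1.19 ± 0.22, adjusted p = 0.0196), and it was the gene also called against untreated eto1-4 (adjusted p = 0.0422). In both genes the AVG arrays lay below the other 4, which the choice of called genes favours. The ribosomal protein genes rps19 (-0.96 ± 0.23) and rps3 (-0.81 ± 0.22) also fell, as did the RNA polymerase subunit gene rpoC1 (-1.40 ± 0.36). Of photosystem II genes, psbN (-1.23 ± 0.30), psbD (-0.75 ± 0.18) and psbZ (-0.83 ± 0.21) fell. The photosystem II genes psbE (0.37), psbF (0.06), psbL (0.08) and psbJ (0.18) and the ribosomal protein gene rpl36 (0.03) were the 5 with a difference above 0, and none passed. Neighbouring chloroplast genes share transcripts, so the members are not independent.

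The number of chloroplast genes that fell was 8 after quantile normalization and 3 after median centring, with medians of -0.68 and -0.53. It was 31 of 67 tested on the spiked arrays alone and 8 with spiked and unspiked arrays as a block. Leaving out Col-0 replicate 1 gave 1, either array of 7303 gave 2 and either array of 9393 gave 15. It was 0 without Col-0 replicate 2 or either AVG array, where the median was -0.61 without Col-0 replicate 2, -0.68 without AVG replicate 1 and -0.74 without AVG replicate 2. The 25S and spike signals given above differ between the same arrays, and their part in this group's difference was not tested.

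Further members that fell were GSTU20 (-1.71 ± 0.33), 1 of 9 glutathione transferases, which detoxify by conjugation, and CYP71B37 (-1.56 ± 0.35) and CYP71B35 (-1.08 ± 0.27), 2 of 11 cytochromes P450. CYP71B35 was not called after either other scaling, nor on the spiked arrays alone (adjusted p = 0.108). UGT78D1 and UGT78D2 were 2 of 28 UDP-glycosyltransferases, GTR1 1 of 6 nitrate and peptide transporters and THI2.2 1 of 3 defensins and thionins. Of all probe sets 4.8% fell. Members that rose, beside 4.4% of all probe sets, were GRXC1 (1.08 ± 0.27), HIS1-3, 1 of 3 histones, and EEL, a transcription factor of late embryogenesis. GRXC1, 1 of 2 glutaredoxins, was not called after quantile normalization. It read 2429 and 1900 with AVG, 2164 and 1461 in untreated eto1-4 and 1131 and 891 in Col-0. EEL had 186 and 401 with AVG, 702 and 364 without it and 89.5 and 67.9 in Col-0 (1.56 ± 0.39), 1 of 4 seed genes, and was not called on the spiked arrays alone (adjusted p = 0.0604). The seed storage gene PAP85 read 49.9 and 140.5 with AVG, 6894 and 42.6 in untreated eto1-4 and 5.11 and 37.2 in Col-0, and replicate 1 of untreated eto1-4 stood apart.

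With 9.2% of all probe sets called, 0 called in a family of this size is no result about its members. No member was called of the 6 SWEET sugar transporters, which had a median of 0.44 with AVG and -0.97 in untreated eto1-4. SWEET17 had 1699.9 and 914 with AVG, 61.5 and 122 without it and 953 and 692 in Col-0, so that AVG and Col-0 overlapped. None of the 7 auxin-responsive genes was called either, with a median of 0.03, differences of -0.36 (LBD29) to 0.46 (WES1) and a median of -0.35 in untreated eto1-4. Of the 3 GID1 gibberellin receptor genes GID1A stood highest (1.03 ± 0.32, adjusted p = 0.0681) and none passed. The cell cycle genes AUR1, PRL (MCM7) and AUR2 differed by -0.52, -0.92 and -0.02, and none passed. No member was called among 5 class III peroxidases (median -0.17), 7 calmodulin-like genes (0.20), 4 WRKY factors (-0.15), 3 reference genes (0.20), 2 extensins and proline-rich proteins (-0.28) or 2 dehydrins (0.56). Likewise the single measured type-A response regulator RR16 (ARR16, 0.96) and cellulose synthase family gene CSLA03 (-0.23) did not pass. The only gene matched to the aquaporin list, AQI (-0.25), did not pass either. It is named as an aquaporin interactor, so no aquaporin itself was measured on that list.

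**Figure D4:**
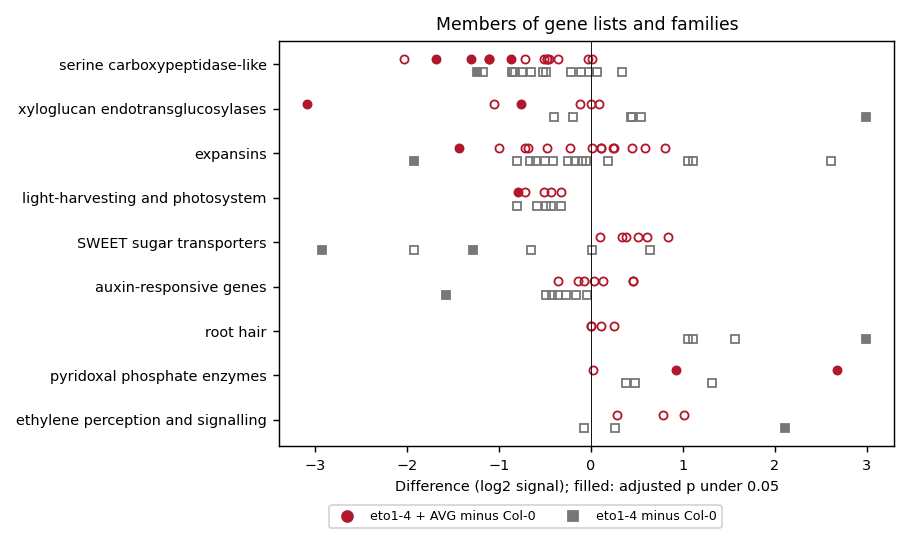
Each circle is the difference of eto1-4 + AVG from Col-0 for 1 gene and each square that of untreated eto1-4 from Col-0 (x axis, log2 scale), by list or family (rows), filled where the adjusted p was under 0.05. The root hair row has circles near 0 and squares above 1, and the serine carboxypeptidase-like row lies mostly below 0 in both.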

How the data were processed

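The deposited values are 1 linear signal intensity per probe set on 12 Affymetrix arrays, made by the authors with MAS5, per the submitters' processing notes. No version or settings of MAS5 are stated in the sources at hand. The mean after trimming 2% was 500.04 to 500.05 on every array, so the deposited intensities share a scale. The number of arrays limits the precision. Probe sets above the 40th percentile of their array on at least 2 arrays were tested, 14830 of 22746. Genes were named through the platform annotation and TAIR10.1 locus tags: 13436 probe sets named 1 gene, 503 several, 77 a gene whose locus tag was not found, and 8730 are unnamed here.

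The log2 of signal plus 22.4 was fitted in limma 3.58.1 under R 4.3.3 with 6 group means, an intensity trend, 6 residual and 4.07 prior degrees of freedom, and Benjamini-Hochberg adjustment over all 14830. No array was dropped or imputed. The labels tie no array to a separate culture, so p-values reflect only how far these arrays vary, which may be technical. The scripts were tested on simulated data.

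Named genes were the 15 that rose and 15 that fell most, changed alike in both same-numbered pairs, the 10 and 10 and the 8 and 8 of the classes, called members of 46 lists and families (1 probe set a gene, the brightest), and all members of 6 lists. Of the 46, 33 had a tested member. The comparison, lists and rules were chosen with earlier results of these data known. The pattern for thionins also matched methionine enzymes and was corrected after the files were read. The chloroplast genes were added as a group after the values were seen, by their locus tags. Alternatives were other offsets, filters, scalings, variance models, blocks and sets of arrays.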

Additional observations from a re-analysis of the deposited data

Results flagged for a closer look

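The control probe set for 25S ribosomal RNA, which is outside the tested probe sets, read 9513 and 7285 on the AVG arrays (replicates 1 and 2), against 208 and 266 on the Col-0 arrays. It was looked at because its signal lay above the level in Col-0. In untreated eto1-4 it read 9784 and 2260, so every comparison with Col-0 also sets a higher against a low 25S signal, and its part in the results was not tested.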

How the results depend on the processing

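Against 1365 called probe sets (653 higher, 712 lower), no filter on dim probe sets gave 854 (427 and 427), the fit on Col-0 and AVG arrays alone 3249 (1432 and 1817), and the spiked arrays alone 2552 (1372 and 1180). Median centring gave 1233 higher and 427 lower. The class with little difference between untreated eto1-4 and Col-0 held 118 with no filter, 376 on spiked arrays and 358 with spiked and unspiked arrays as a block, against 223; the class called in both held 60 with no filter and 318 with that block, against 102. Against the other 3 treatments 1 probe set was called, and 0 with an offset of 100 or on spiked arrays. Leaving out 1 array gave 0 to 1690 calls (0 to 828 higher, 0 to 865 lower), 0 to 354 and 0 to 142 in the classes, and 0 to 7 against the treatments; a lone array was taken to vary like the other groups. The classes could not be computed from the Col-0 and AVG arrays alone. The cause of these changes was not tested. Fits on fewer arrays have fewer degrees of freedom, and some of them gave more calls and others fewer.

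None of the 73 called genes chosen by the naming rules turned its sign in a setting where it was tested. These genes were chosen by this difference and the settings reuse the same arrays, so this is no independent support. The called chloroplast genes were not part of that count. Some uncalled genes turned the sign of their difference from Col-0. On the spiked arrays alone, and equally without Col-0 replicate 1, CBL was -0.18, AT4G26010 -0.48, EXPA18 -0.24 and XTH26 -0.48. With spiked and unspiked arrays as a block, AT4G26010 was -0.19, EXPA18 -0.15, EXPA7 -0.075 and XTH26 -0.28. With 1 array left out at a time, CBL ranged from -0.18 to 0.22, AT4G26010 from -0.49 to 0.50, EXPA18 from -0.24 to 0.47 and XTH26 from -0.59 to 0.59. Without AVG replicate 2, CBL was -0.01, AT4G26010 -0.49, EXPA18 -0.10 and XTH26 -0.59. CBL was -0.0030 after quantile normalization and XTH26 -0.093 with an offset of 5.

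With the replicate number as a block, 1746 probe sets were called (841 higher, 905 lower), and the classes held 329 and 149. The deviations of same-numbered AVG and Col-0 arrays correlated at -0.06. Pairs among Col-0, eto1-4, 9393 and 9370, the groups whose replicate 1 is unspiked, correlated at 0.03 to 0.78, and pairs with 7303 or AVG at -0.27 to 0.09. As not every pair was over 0.1, the numbers were not taken to pair the arrays. Signal near background limits THI2.2, XTH26 and other dim genes.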
